A study of Mus musculus with 6 samples.

Results

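The mitosis genes examined here are 34 genes of G2 phase, the spindle, the kinetochore and cytokinesis, taken from the deposited count table by gene name. All 34 were found among the 57180 rows of the table, and 33 had enough counts to be tested. RNA was sequenced from bone marrow-derived macrophages of wild-type mice aged 6 to 8 weeks, which are marrow cells grown for 7 days in 20 ng/mL of the growth factor M-CSF. The first group of cultures received CGRP, a neuropeptide of sensory nerves, together with IL-4, and the second received IL-4 alone at 20 ng/mL, both for 24 h. There were 3 libraries in each group, and all cells of both groups had been given M-CSF and IL-4, so neither the effect of IL-4 nor that of CGRP without IL-4 was measured. The labels do not say whether replicates are separate cultures, mice or only preparations, so p-values here stand for the spread among these libraries, part of which may be technical.

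Cells enter mitosis when CDK1, bound to a B-type cyclin, is switched on by removal of inhibitory phosphates, and they leave it when the anaphase-promoting complex (APC/C) marks cyclin B and other proteins for destruction. In between, kinesin motors build a bipolar spindle, kinetochores attach chromosomes to it under the watch of checkpoint kinases, and the contractile ring then divides the cell. Most of these genes are transcribed mainly in G2 and M phase, and M-CSF, the growth factor in these cultures, is the main mitogen of macrophages. IL-4 is also known to drive division of resident macrophages in mouse tissues.

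Many G2 and M phase genes are known to be controlled through a cell cycle genes homology region (CHR), which is bound by the DREAM and MuvB complexes, and through CCAAT boxes, which are bound by NF-Y. RefSeq promoter windows of 300 bases, from 250 before to 50 after the annotated start (build GRCm38.p6), were found for 28 of the 34 genes. There was no entry for Ccna2, Cdc25c, Aurkb, Kif20a, Tpx2 and Smc4. The CHR was searched as TTTGAA or TTCGAA and the CCAAT box as CCAAT, on both strands, and a CHR and a CCAAT motif can share at most 1 base. Ect2 and Prc1 had 2 windows each, so there were 30 in all. A CHR motif was present in 25 of 30 windows of the mitosis genes (83.3%), against 19.2% of all 32851 promoter windows in the table. CCAAT was present in 23 of the 30 (76.7%), against 37.4% of all windows, and 21 (70%) held both, against 7.52%. In windows with both, the closest pair of motifs started a median of 28 bases apart in the mitosis genes and 61 bases apart in all promoters. These are matches of letters and not binding sites shown to be used. The windows below belong to the 5 genes with the smallest p-values for the effect of CGRP among those that hold both motifs. Each is written 5′ to 3′ on the strand of the gene, with CHR and CCAAT motifs in capitals (ATTGG and TTCAAA are their reverse complements).
Kif11, chr19:37376132-37376431 (+): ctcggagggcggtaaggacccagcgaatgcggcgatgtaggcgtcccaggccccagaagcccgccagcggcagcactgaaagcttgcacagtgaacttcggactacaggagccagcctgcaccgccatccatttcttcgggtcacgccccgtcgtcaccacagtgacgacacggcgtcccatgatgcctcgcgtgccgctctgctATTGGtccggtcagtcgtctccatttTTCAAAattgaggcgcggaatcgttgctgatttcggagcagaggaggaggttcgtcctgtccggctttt
Prc1, chr7:80294201-80294500 (+): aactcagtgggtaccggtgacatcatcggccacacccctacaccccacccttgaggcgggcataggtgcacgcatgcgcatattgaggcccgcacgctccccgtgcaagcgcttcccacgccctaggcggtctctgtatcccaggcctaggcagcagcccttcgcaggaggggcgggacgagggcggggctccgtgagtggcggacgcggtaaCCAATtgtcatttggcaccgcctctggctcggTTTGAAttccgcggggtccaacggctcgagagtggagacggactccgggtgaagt
Mki67, chr7:135716330-135716629 (-): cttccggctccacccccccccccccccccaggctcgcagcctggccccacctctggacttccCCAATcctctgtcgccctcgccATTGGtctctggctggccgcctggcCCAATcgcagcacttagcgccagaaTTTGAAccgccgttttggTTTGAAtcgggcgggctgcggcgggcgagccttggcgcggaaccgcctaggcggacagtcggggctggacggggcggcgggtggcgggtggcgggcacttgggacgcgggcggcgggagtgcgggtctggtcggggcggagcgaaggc
Bub1b, chr2:118597961-118598260 (+): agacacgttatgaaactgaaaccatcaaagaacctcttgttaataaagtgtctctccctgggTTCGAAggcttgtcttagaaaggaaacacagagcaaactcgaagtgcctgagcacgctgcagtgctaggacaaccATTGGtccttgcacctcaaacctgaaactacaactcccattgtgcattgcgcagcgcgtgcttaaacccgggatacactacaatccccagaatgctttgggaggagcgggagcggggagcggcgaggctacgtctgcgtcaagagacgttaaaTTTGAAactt
Kif4, chrX:100625815-100626114 (+): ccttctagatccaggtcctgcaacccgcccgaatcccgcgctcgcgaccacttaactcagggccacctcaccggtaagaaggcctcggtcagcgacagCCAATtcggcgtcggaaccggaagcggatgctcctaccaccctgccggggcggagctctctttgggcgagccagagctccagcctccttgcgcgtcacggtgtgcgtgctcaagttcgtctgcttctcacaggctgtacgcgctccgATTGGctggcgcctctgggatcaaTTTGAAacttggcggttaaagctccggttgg

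In Kif11 the inverted CCAAT box began at -45 relative to the annotated start and the inverted CHR at -19. In the printed window of Prc1, 1 of its 2, the CCAAT box began at -37 and the CHR at -5. The Mki67 window held 3 CCAAT boxes, beginning at -188, -166 and -141 relative to the start, and 2 CHR motifs, beginning at -116 and -98. In Bub1b and Kif4 a CHR began after the start, at 41 and 20. The 5 windows were chosen for holding both motifs, so the presence of both in each was fixed by the choice. Mki67 had a positive log2 fold change for CGRP in these libraries and the others had negative ones. Ccnb1, at -0.46, had a CCAAT match but no CHR match and was left out by this choice. Whether the motifs go with the direction of change was not tested.

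The mitosis genes as a group were expressed at low levels in both groups, and few of them passed the test for an effect of CGRP. Kif11, the kinesin that pushes spindle poles apart, fell 1.4-fold and was the only 1 of 33 tested genes called at an adjusted p of 0.05. None was called higher. Among all 13260 genes tested by edgeR's quasi-likelihood test with Benjamini-Hochberg adjustment, 3.85% were called in either direction, 1.54% as lower and 2.32% as higher, so 1 call in 33 genes is near the background. Higher calls made up 60.1% of all calls, or 71.2% without TMM factors. At an unadjusted p under 0.05 there were 4 mitosis genes: the log2 fold changes of Kif11, Ccnb1 and Prc1 were negative and that of Mki67 was positive. Over all tested genes 15.8% reached this level, 7.21% as lower and 8.61% as higher. DESeq2 and limma-voom called no mitosis gene.

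The differences were small and lay mostly below 0. The log2 fold change (IL-4+CGRP over IL-4) was negative for 26 of the 33 genes (78.8%), against 50.8% of all tested genes; without TMM factors (library totals alone) it was negative for 24. Its median was -0.14 over the mitosis genes and -0.0042 over all tested genes. The range ran from -0.48 for Kif11 to 0.22 for Kif23. The 95% interval of every tested gene lay within a 2-fold change in either direction, and that of 19 of the 33 within 1.5-fold. Standard errors ran from 0.07 for Smc4, with 6128 counts over the 6 libraries, to 0.29 for Ttk, with 131.

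**Figure D1:**
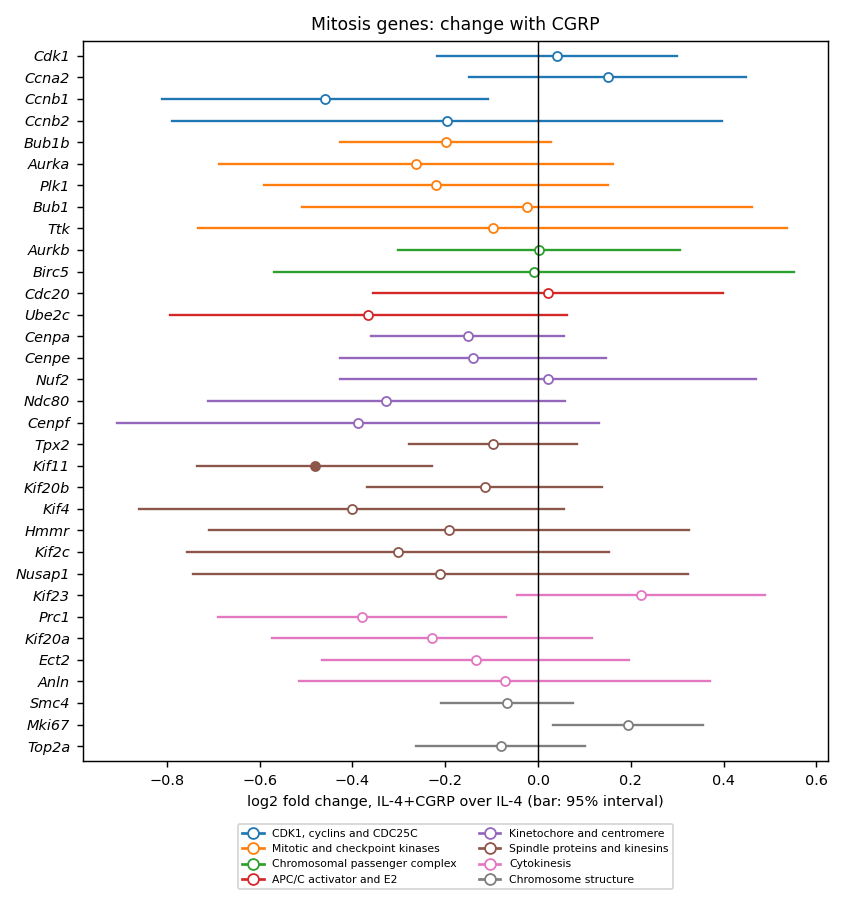
Log2 fold change of each of the 33 tested mitosis genes (horizontal axis, IL-4+CGRP over IL-4), one gene per row, coloured by role; bars are 95% intervals from the edgeR fit and a filled point marks a gene past the adjusted threshold. Points for 26 genes lie left of 0 (24 without TMM factors), and the filled point is Kif11 at -0.48.

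Because these are bulk libraries, the number of dividing cells and the RNA per dividing cell cannot be told apart. The 34 genes together held 0.0238% to 0.0261% of counts in the IL-4+CGRP libraries and 0.0254% to 0.0266% in the IL-4 libraries. Summed levels were 257, 238 and 258 CPM (counts scaled to library size with TMM factors) in IL-4+CGRP replicates 1 to 3, against 258, 265 and 266 CPM in IL-4 replicates 1 to 3. The highest IL-4+CGRP library and the lowest IL-4 library lay at 258.14 and 258.07 CPM, so the groups just overlapped. Mean sums were 251 ± 11.4 CPM in IL-4+CGRP and 263 ± 4.45 CPM in IL-4 (SD, n = 3 each). Mki67, Top2a and Smc4 held 43.4% of the sum, and 18 of the 34 genes averaged under 4 CPM.

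**Figure D2:**
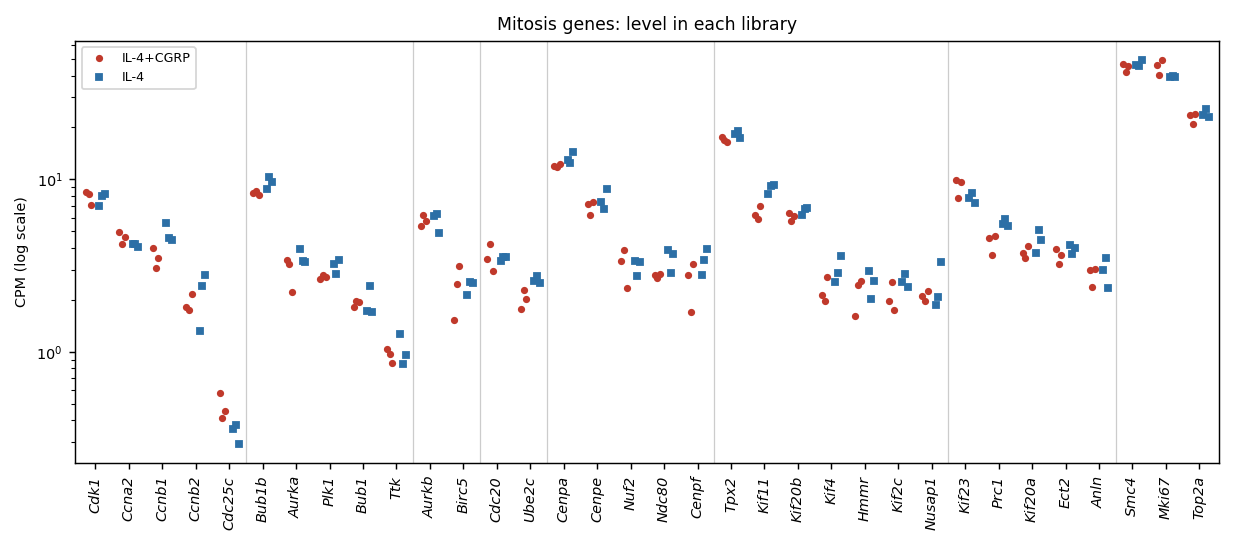
Level of each of the 34 mitosis genes in every library (vertical axis, CPM on a log scale), with genes in order of role from CDK1 and its cyclins at the left to chromosome structure at the right, IL-4+CGRP libraries as circles left of IL-4 libraries as squares. Levels span from under 1 CPM for Cdc25c to over 40 CPM for Smc4 and Mki67, and the 2 groups overlap for 23 of the 33 tested genes.

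Per kilobase of transcript, as the deposited table gives gene lengths, the order of levels differed from that in CPM. Smc4 was highest at 10.6 CPM per kilobase (mean of 6 libraries, range 9.75 to 11.4), and Cenpa followed at 8.61 (8.02 to 9.84). The ranges of these neighbours overlapped between libraries, but within each library Smc4 was above Cenpa. Cdk1 came next at 6.25 CPM per kilobase (5.57 to 6.78), apart from both Cenpa above and Top2a below (4.48, range 3.99 to 4.90). Top2a, Tpx2 (4.24) and Mki67 (4.2, range 3.89 to 4.88) overlapped one another. Lowest were Ttk at 0.344, Cenpf at 0.268 and Cdc25c at 0.211 CPM per kilobase.

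CDK1 and its regulators did not change past the threshold. Cdk1 (ENSMUSG00000019942), the kinase that starts mitosis, had 8.50, 8.22 and 7.12 CPM in IL-4+CGRP replicates 1 to 3, against 6.98, 7.98 and 8.17 CPM in IL-4 replicates 1 to 3. The groups overlapped, with a log2 fold change of 0.04 ± 0.12 (SE; 95% interval -0.22 to 0.30). Ccna2, cyclin A2, which acts in S and G2 phase, had 4.95, 4.22 and 4.64 CPM in IL-4+CGRP and 4.2, 4.22 and 4.05 CPM in IL-4. The lowest IL-4+CGRP library of Ccna2 was just above the highest IL-4 library, at 0.15 ± 0.14 (SE) on the log2 scale and an edgeR adjusted p = 0.65.

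Ccnb1, cyclin B1, the main partner of CDK1 in mitosis, had the opposite sign of log2 fold change to cyclin A2, a difference not tested. It had 4.0, 3.08 and 3.51 CPM in IL-4+CGRP against 5.62, 4.60 and 4.42 CPM in IL-4, and every IL-4+CGRP library was below every IL-4 library. The log2 fold change was -0.46 ± 0.16 (SE) with an edgeR adjusted p = 0.17, which did not pass. Ccnb2, cyclin B2, had 1.91 ± 0.223 CPM in IL-4+CGRP and 2.17 ± 0.765 CPM in IL-4 (SD, n = 3 each), with overlapping groups. Cdc25c, a phosphatase that activates CDK1, had 14, 9 and 10 counts in IL-4+CGRP and 7, 8 and 7 counts in IL-4, too few to be tested.

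The mitotic and checkpoint kinases Plk1, Aurka, Ttk, Bub1 and Bub1b had negative log2 fold changes, from -0.26 for Aurka to -0.02 for Bub1 (0.0028 for Bub1 without TMM factors), and none passed. Bub1b, which encodes the checkpoint protein BubR1, was the most abundant, at 8.38, 8.54 and 8.15 CPM in IL-4+CGRP and 8.80, 10.3 and 9.68 CPM in IL-4. Its groups did not overlap, and its log2 fold change was -0.20 ± 0.10 (SE; edgeR adjusted p = 0.39). Aurka, the kinase of centrosomes and spindle poles, had 3.42, 3.21 and 2.21 CPM in IL-4+CGRP against 3.95, 3.38 and 3.34 CPM in IL-4, where replicate 1 of IL-4+CGRP lay within the IL-4 range. Plk1, polo-like kinase 1, had 2.64 to 2.80 CPM in IL-4+CGRP and 2.82 to 3.42 CPM in IL-4, without overlap (edgeR adjusted p = 0.59). The summed level of these 5 kinases was 16.9 ± 0.892 CPM in IL-4+CGRP and 19.3 ± 0.394 CPM in IL-4 (SD, n = 3 each), and the summed levels of the groups did not overlap.

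Aurkb and Birc5 belong to the chromosomal passenger complex, which corrects faulty attachments of chromosomes, and had log2 fold changes near 0. Aurkb, the kinase of the complex, had 5.36, 6.24 and 5.72 CPM in IL-4+CGRP and 6.12, 6.34 and 4.88 CPM in IL-4, a log2 fold change of 0.0022 with a 95% interval of -0.30 to 0.31. Birc5, survivin, had 1.53, 2.48 and 3.15 CPM in IL-4+CGRP and 2.13, 2.53 and 2.5 CPM in IL-4. The IL-4+CGRP libraries of Birc5 held both its lowest and its highest value, and its 95% interval ran from -0.57 to 0.55, so equality is not shown. The other subunits, Cdca8 and Incenp, which were named after their values were seen, are outside the main list. Their log2 fold changes were -0.22 ± 0.12 (SE) for Cdca8 and 0.01 ± 0.07 (SE) for Incenp, and neither passed.

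Of the genes of the anaphase-promoting complex pathway, Cdc20, its activator in mitosis, had 3.47, 4.22 and 2.93 CPM in IL-4+CGRP and 3.34, 3.57 and 3.54 CPM in IL-4, with overlapping groups. Ube2c, the ubiquitin-conjugating enzyme that works with the complex, had 1.77, 2.30 and 2.03 CPM in IL-4+CGRP against 2.58, 2.77 and 2.5 CPM in IL-4. All its IL-4+CGRP libraries were below all its IL-4 libraries, but at 308 counts in all the log2 fold change of -0.37 ± 0.20 (SE) did not pass (edgeR adjusted p = 0.40).

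Kinetochore and centromere genes had log2 fold changes of -0.39 (Cenpf) to 0.02 (Nuf2), and none of the 5 passed. Cenpa, the histone H3 variant that marks centromeres, had 11.9, 11.8 and 12.3 CPM in IL-4+CGRP and 13.0, 12.4 and 14.4 CPM in IL-4, a small difference without overlap (-0.15 ± 0.10, SE; edgeR adjusted p = 0.49). Cenpe, a kinesin of the kinetochore, had 7.18, 6.24 and 7.43 CPM in IL-4+CGRP and 7.39, 6.76 and 8.80 CPM in IL-4, with overlap. Ndc80 and Nuf2, which encode partners in the complex that grips microtubules, had log2 fold changes of opposite sign, that of Nuf2 close to 0. Ndc80 averaged 2.77 ± 0.0931 CPM in IL-4+CGRP and 3.48 ± 0.543 CPM in IL-4 (SD, n = 3 each). Nuf2 averaged 3.20 ± 0.790 CPM in IL-4+CGRP and 3.15 ± 0.329 CPM in IL-4 (SD, n = 3 each). Neither passed, and the difference between them was not tested.

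Spindle genes held the only call. Kif11 (ENSMUSG00000012443), also called Eg5, had 6.19, 5.88 and 6.98 CPM in IL-4+CGRP against 8.20, 9.15 and 9.22 CPM in IL-4, so every IL-4+CGRP library was below every IL-4 library. Its log2 fold change was -0.48 ± 0.12 (SE; 95% interval -0.73 to -0.23), with an edgeR adjusted p = 0.042. By p-value it ranked 457 among the 511 called genes of the comparison. The call ended under library totals alone (adjusted p = 0.056), DESeq2 (adjusted p = 0.097), limma-voom (adjusted p = 0.056) and edgeR without robust dispersions (adjusted p = 0.0502). It also ended without IL-4+CGRP replicate 1 (adjusted p = 0.16) or without IL-4 replicate 1, 2 or 3 (adjusted p = 0.083, adjusted p = 0.17 and adjusted p = 0.17), while the log2 fold change stayed between -0.56 and -0.43.

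All 7 spindle genes had negative log2 fold changes, except that Nusap1 was at 0.09 without IL-4 replicate 3. Tpx2, which nucleates microtubules near chromosomes, was the most abundant, with 17.7, 16.9 and 16.5 CPM in IL-4+CGRP and 18.3, 19.1 and 17.3 CPM in IL-4. These groups overlapped, and the log2 fold change was -0.10 ± 0.08 (SE). Kif4, a chromosome-bound kinesin, had 2.27 ± 0.381 CPM in IL-4+CGRP and 2.99 ± 0.540 CPM in IL-4 (SD, n = 3 each; -0.40 on the log2 scale, edgeR adjusted p = 0.39). Kif2c, a kinesin that depolymerises microtubules, Kif20b, a plus-end kinesin, Hmmr, a spindle assembly factor, and Nusap1, a microtubule-bundling protein, ran from -0.30 to -0.12 and overlapped between groups. Summed over the 7 genes, the level was 38.1, 37.4 and 38.9 CPM in IL-4+CGRP and 42.6, 44.7 and 45.2 CPM in IL-4, without overlap. Sums of the kinases and of the kinetochore genes did not overlap either. Those of CDK1 and its regulators did, at 17.7 to 19.8 CPM in IL-4+CGRP and 18.5 to 19.7 CPM in IL-4. Sums of the passenger complex, anaphase-promoting complex, cytokinesis and chromosome structure genes overlapped too.

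Cytokinesis genes did not all lie on the same side of 0. Prc1, which bundles microtubules of the central spindle, had 4.58, 3.63 and 4.69 CPM in IL-4+CGRP and 5.52, 5.91 and 5.38 CPM in IL-4. Every IL-4+CGRP library was below every IL-4 library, at -0.38 ± 0.14 (SE) on the log2 scale and an edgeR adjusted p = 0.20. Kif23, the motor subunit of centralspindlin at the same structure, had 9.94, 7.76 and 9.64 CPM in IL-4+CGRP and 7.84, 8.31 and 7.34 CPM in IL-4. Its replicates 1 and 3 of IL-4+CGRP were above all IL-4 libraries and replicate 2 was not (0.22 ± 0.12, SE; edgeR adjusted p = 0.42). Ect2, which activates RhoA at the division site, Anln, a scaffold of the contractile ring, and Kif20a, a kinesin of the central spindle, had log2 fold changes from -0.23 to -0.07 with overlapping groups.

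Mki67, Top2a and Smc4 were the most abundant in CPM. Mki67, the Ki-67 protein that coats mitotic chromosomes and is used as a proliferation marker, had 45.9, 40.4 and 49.1 CPM in IL-4+CGRP against 39.4, 39.9 and 39.1 CPM in IL-4. All IL-4+CGRP libraries lay above all IL-4 libraries, replicate 2 by the least, and the log2 fold change was 0.19 ± 0.07 (SE; edgeR adjusted p = 0.22). Without IL-4+CGRP replicate 2, Mki67 passed as higher, at 0.27 and an adjusted p = 0.0062. In that fit 13.8% of all tested genes were called, Kif11 was still called lower (adjusted p = 0.033), and no other mitosis gene passed. Smc4, a condensin subunit that compacts chromosomes, had 47.0, 42.1 and 45.5 CPM in IL-4+CGRP and 46.2, 45.4 and 49.3 CPM in IL-4. Top2a, the topoisomerase that untangles sister chromatids, averaged 22.7 ± 1.65 CPM in IL-4+CGRP and 24.1 ± 1.38 CPM in IL-4 (SD, n = 3 each). Smc4 and Top2a overlapped between groups, with 95% intervals of -0.21 to 0.08 and -0.26 to 0.10.

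**Figure D3:**
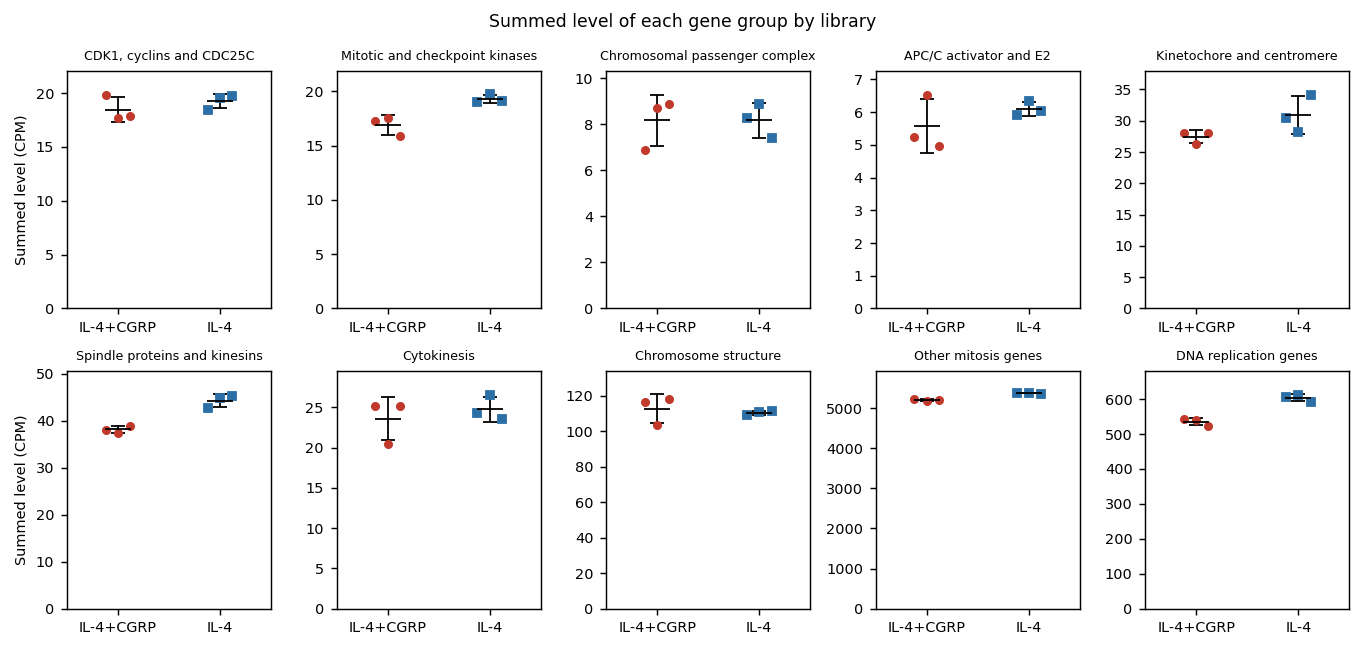
Summed level in CPM (vertical axes, from 0) of each role group of mitosis genes, of the other mitosis genes and of DNA replication genes, with each library as a point (IL-4+CGRP left, IL-4 right) and the mean and SD of 3 libraries in black. The summed spindle genes lie at 37.4 to 38.9 CPM in IL-4+CGRP and 42.6 to 45.2 CPM in IL-4. Sums of the kinases and of the kinetochore genes do not overlap either, whereas those of the remaining role groups, such as chromosome structure, overlap.

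Across the 33 tested genes, groups did not overlap for 8 as lower in IL-4+CGRP and for 2 as higher. Over all tested genes 21% did not overlap, 9.92% as lower and 11.1% as higher. The 8 were Kif11, Prc1, Ccnb1, Bub1b, Plk1, Cenpa, Ndc80 and Ube2c, and the 2 were Mki67 and Ccna2. The lowest of the 6 libraries was an IL-4+CGRP library for 23 of the 33 genes (69.7%, against 54.4% of all tested genes). The highest was an IL-4 library for 26 (78.8%, against 47.4%). IL-4+CGRP replicate 2 was the lowest library for 13 genes. Within its group this library also stood apart over all genes. Across genes, which are not independent replicates, its log2 CPM gave a Pearson's r of 0.9876 and 0.9869 with the other IL-4+CGRP libraries. Those libraries had an r of 0.9929 with each other. With replicate 1 of IL-4, the r of IL-4+CGRP replicate 2 was 0.9882. The lowest r of any pair, 0.9822, was between IL-4 replicate 1 and IL-4+CGRP replicate 3.

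**Figure D4:**
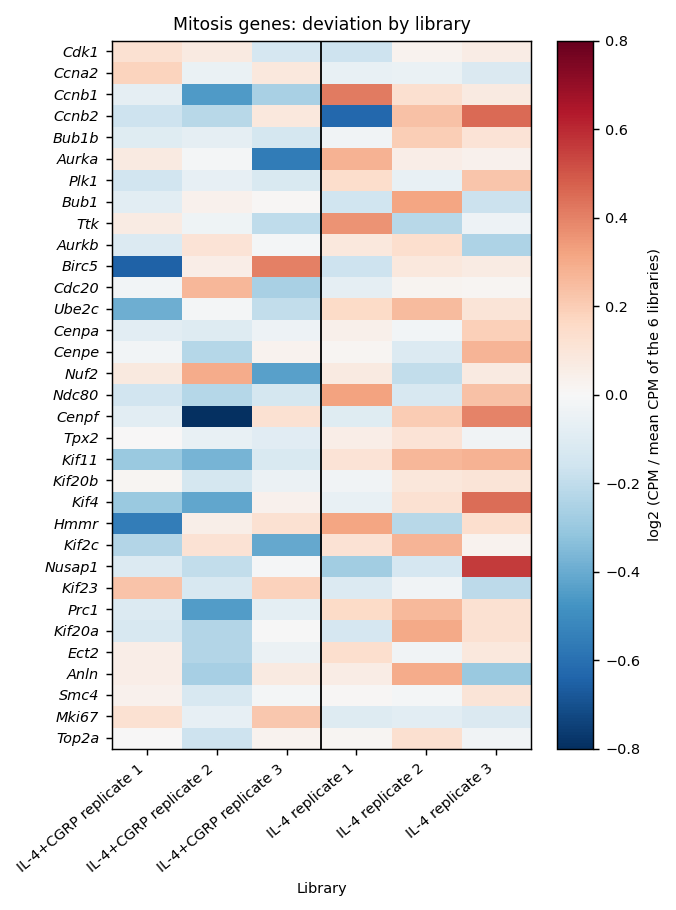
Each row is a tested mitosis gene in order of role and each column a library, IL-4+CGRP left of IL-4; colour is log2 of the CPM over the mean CPM of the 6 libraries. The median over the genes is -0.08, -0.10 and -0.04 in IL-4+CGRP replicates 1 to 3 and 0.02, 0.09 and 0.09 in IL-4 replicates 1 to 3. Mki67, Kif23, Ccna2, Anln and Top2a are above 0 in both IL-4+CGRP replicates 1 and 3.

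Other genes of mitosis, from lists of 150 genes in 7 groups, were likewise mostly not called: of 148 tested rows, 1 was higher and 1 lower (2.32% and 1.54% over all tested genes). Of these rows 108 had negative log2 fold changes, with a median of -0.06. Ncapg2, a subunit of condensin II, rose 1.27-fold to 98.5 ± 5.43 CPM in IL-4+CGRP, against 77.5 ± 2.67 CPM in IL-4 (SD, n = 3 each; edgeR adjusted p = 0.0054). Anapc5, a subunit of the anaphase-promoting complex, fell 1.16-fold to 229.5 ± 1.72 CPM in IL-4+CGRP, against 266 ± 6.25 CPM in IL-4 (SD, n = 3 each; edgeR adjusted p = 0.022). The Anapc5 call ended without any 1 of the libraries except IL-4+CGRP replicate 2 and without TMM factors, and the Ncapg2 call without IL-4 replicate 2. Without IL-4+CGRP replicate 2, 2 of these genes were called higher and 12 lower, with 13.8% of all tested genes called.

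By group, 0 of 16 regulators of G2 and M phase transcription passed, with a median log2 fold change of -0.04. E2f4, a repressor subunit of the DREAM complex, had the smallest p there (0.20 on the log2 scale, adjusted p = 0.10), followed by Mybl2 (-0.36), the activator that replaces it on MuvB, and Lin37 (-0.18). Among 16 genes of mitotic entry 0 passed (median -0.15). Wee1, the kinase that holds CDK1 inactive, came closest at -0.35 (adjusted p = 0.083), ahead of Ccnf (-0.22) and Fbxo5 (-0.29). Beside Anapc5, 0 of 15 genes of the anaphase-promoting complex and mitotic exit passed (Fzr1 at 0.13 and Anapc4 at -0.13 came next). Of 38 further checkpoint and kinetochore genes 0 passed, with a median of -0.12, and Spc25, a partner of Ndc80 and Nuf2, had a log2 fold change of -0.46 (adjusted p = 0.10). Zwint (-0.19) and Cenph (-1.04, at 83 counts in all) followed.

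Of 30 further spindle genes 0 passed, at a median of -0.12. Haus8 (-0.26, adjusted p = 0.071) and Haus6 (-0.26), of the augmin complex that branches spindle microtubules, and Psrc1 (-0.31) had the smallest p-values. Beside Ncapg2, Ncapg (-0.36) and Smc1a (-0.09) led the 17 condensin and cohesin genes by p-value. Cytokinesis genes outside the main list, 15 rows for 14 genes because Septin2 has more than 1 row, had 0 calls and a median of -0.04. Rhoa (-0.14, edgeR adjusted p = 0.15), Septin2 (ENSMUSG00000026276, -0.11) and Septin11 (-0.12) led by p-value. Another row of Septin2 (ENSMUSG00000116048) was at 0.12 and was not called. Many of the genes in these lists also work outside mitosis.

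DNA replication genes, which act in S phase, gave 0 higher and 2 lower of 29 tested, against 2.32% higher and 1.54% lower over all tested genes, with a median log2 fold change of -0.17. Pcna, the clamp of DNA polymerases, fell 1.22-fold to 125.5 ± 3.86 CPM in IL-4+CGRP, against 153 ± 4.69 CPM in IL-4 (SD, n = 3 each; edgeR adjusted p = 0.0089). Gmnn, geminin, an inhibitor of replication licensing that the anaphase-promoting complex destroys, fell 1.44-fold (edgeR adjusted p = 0.034). Lig1, DNA ligase 1, was at -0.33 (adjusted p = 0.054). The summed replication genes were at 524 to 542 CPM in IL-4+CGRP and 592 to 613 CPM in IL-4, without overlap. Sums of the other mitosis genes did not overlap either (5173 to 5232 CPM in IL-4+CGRP and 5362 to 5375 CPM in IL-4). That sum includes abundant genes that also work outside mitosis, such as Rhoa (319 CPM in IL-4+CGRP and 352 CPM in IL-4). Within it, cytokinesis genes averaged 1682 CPM in IL-4+CGRP and 1756 CPM in IL-4. Condensin and cohesin genes averaged 1010 CPM in IL-4+CGRP and 1002 CPM in IL-4, with overlap. Sums of the 34 mitosis genes just overlapped. Whether the difference is larger in replication genes than in mitosis genes was not tested. The Pcna call ended without IL-4 replicate 1 or 3, and the Gmnn call without any 1 library except IL-4+CGRP replicate 2, and by limma-voom and edgeR without robust dispersions. Without IL-4+CGRP replicate 2, 5 replication genes were called lower, in a fit that called 950 of 13492 tested genes lower.

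**Figure D5:**
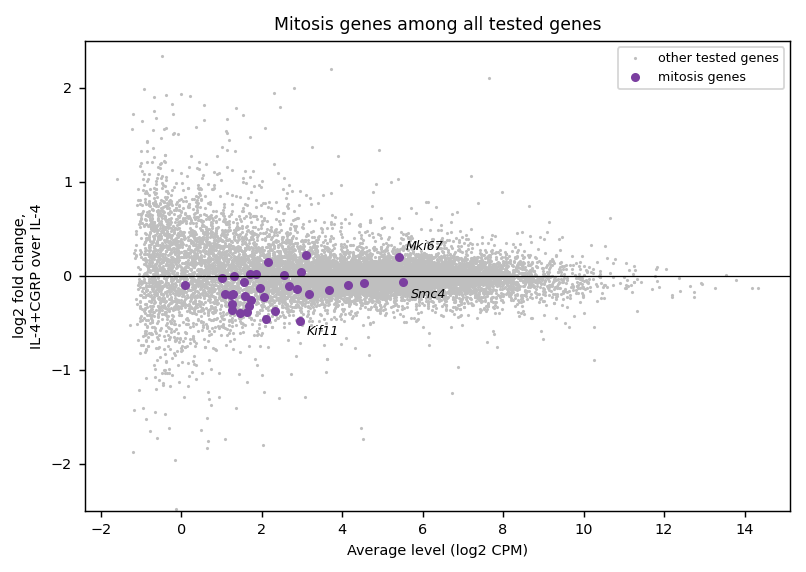
Log2 fold change (vertical axis, IL-4+CGRP over IL-4) against average level (horizontal axis, log2 CPM) for the 13260 tested genes in grey and the 33 tested mitosis genes in purple; 22 genes beyond 2.5 in either direction are outside the plotted range. The mitosis genes lie between -0.48 and 0.22, inside the cloud of all genes at their level.

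The markers matched the label of the cells. All 10 macrophage markers were tested, 2 were called higher, and their summed level was 14678 to 15052 CPM in IL-4+CGRP and 14425 to 14664 CPM in IL-4, without overlap. The called genes were Cd14 (0.61 on the log2 scale) and Itgam (0.41), and Cx3cr1 followed by p-value at -1.10 (edgeR adjusted p = 0.059). The log2 fold change was negative for 4 of the 10. Csf1r, the M-CSF receptor, which was not called, averaged 3711 ± 132 CPM in IL-4+CGRP and 3486 ± 91.8 CPM in IL-4 (SD, n = 3 each). Marrow progenitors, which also divide, had 10 markers with a summed level of 14.2 to 16.8 CPM in IL-4+CGRP and 16.6 to 19.0 CPM in IL-4. Of these, 8 were tested and 0 called, 3 had negative log2 fold changes, and the median was 0.06. Mpo (-0.42), Kit (-0.44) and Prtn3 (0.66) had the smallest p-values (edgeR adjusted p = 0.20, adjusted p = 0.23 and adjusted p = 0.36), and no progenitor marker was at 0 in all libraries. Summed markers of neutrophils (9 genes, 30.5 to 43.0 CPM in IL-4+CGRP and 31.6 to 40.9 CPM in IL-4) and erythroid cells (7 genes, 1.79 to 2.61 CPM in IL-4+CGRP and 1.77 to 2.5 CPM in IL-4) overlapped. Mast cell and basophil markers (8 genes, 10.7 to 13.0 CPM in IL-4+CGRP and 13.3 to 15.3 CPM in IL-4) and lymphocyte markers (8 genes, 19.7 to 22.6 CPM in IL-4+CGRP and 22.9 to 23.8 CPM in IL-4) were lower in IL-4+CGRP without overlap, with 0 genes called in either list. Stromal and endothelial markers (9 genes) were at 153 to 161 CPM in IL-4+CGRP and 114 to 122 CPM in IL-4, without overlap. Pecam1, also expressed by macrophages, made up most of this sum and was called higher. Of the 8 tested, 1 had a negative log2 fold change, and the median was 0.29. Col3a1 (0.73, edgeR adjusted p = 0.11) and Col1a1 (0.23, edgeR adjusted p = 0.23) followed Pecam1 by p-value and were not called. Ly6g, Mcpt4, Hbb-bs and Hbb-bt were at 0 in every library. The part of these cells in the level of the mitosis genes was not tested.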

How the data were processed

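The mitosis genes and the other gene lists were chosen with earlier results of these data known. The deposited table holds estimated counts per gene, not scaled to library size, as the values show. Per the submitters' processing notes, the authors used fastp, HISAT2 and StringTie with mouse build GRCm39. Versions, annotation, counting step and strand setting are not stated there, so reads shared by overlapping or antisense genes could be assigned to either. Per the labels' protocols, libraries came from a stranded mRNA kit. Between 23.3% and 26.6% of values above 0 per library were not whole (tolerance 1e-06), and counts were rounded. The authors' group means in the deposited table were used only to check columns, and 0 other columns hold per-sample values.

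Totals were 20088859 to 24060440 counts per library. Genes passing filterByExpr (13260, with 99.91% of counts) were scaled by TMM and compared between groups in R 4.3.3 by the two-sided quasi-likelihood F test of edgeR 4.0.16 with robust dispersions and no covariate. P-values were adjusted over all of them (Benjamini-Hochberg, threshold 0.05). SEs are the log2 fold change over the square root of F, and 95% intervals use the fit's degrees of freedom and are not adjusted for the number of genes. Alternatives used DESeq2 1.42.0, limma-voom (limma 3.58.1), other scalings and filters, the replicate number as a block, and fits without 1 library or without the pair of libraries that correlated across groups. Scripts were tested on simulated data. All 34 genes are reported; values of every library are given for genes called and for the 2 most abundant in each role, and for Ccnb1, chosen after its values were seen. From the other mitosis and replication lists, the 3 genes with the smallest p are named; the marker genes named, and Cdca8 and Incenp, are outside this rule and were chosen after their values were seen. Promoters are from RefSeq (GRCm38.p6), matched by symbol. The dose of CGRP is left out because its wording in the labels is ambiguous.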

Additional observations from a re-analysis of the deposited data

How the results depend on the processing

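The median log2 fold change of the mitosis genes kept its direction under every alternative run, from -0.17 to -0.11, and the log2 ratio of summed levels moved from -0.07 to -0.04 with library totals alone. The 1 lower mitosis call became 0 with library totals alone, DESeq2, limma-voom, dispersions that were not robust and the replicate block. With library totals alone the other mitosis genes had 0 lower calls, Bub1 turned to 0.00283 and Birc5 to 0.0171, and Nuf2 turned to -0.00538 by limma-voom. With no count filter 584 of all genes were higher and 434 lower, and 2 other mitosis genes were higher and 4 lower. By limma-voom and without robust dispersions 1 replication gene was lower. Apart from the construction of fits with fewer libraries or other genes, the cause of these changes was not tested.

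Replicate numbers are shared by the groups. Deviations of same-numbered libraries from their group means gave r = -0.19, -0.18 and 0.13 across genes for numbers 1 to 3. The highest r between groups was 0.29, for IL-4+CGRP replicate 2 and IL-4 replicate 1. Next came 0.16, for IL-4+CGRP replicate 1 and IL-4 replicate 2. With the replicate number as a block, 176 of all genes were higher and 86 lower, and 0 mitosis, 0 other mitosis and 0 replication genes were lower. The adjusted p under the block was 0.10 for Kif11, 0.11 for Anapc5, 0.059 for Pcna and 0.075 for Gmnn. IL-4+CGRP replicate 3 and IL-4 replicate 3 each correlated best with their own number and the other libraries did not.

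Leaving out 1 library, or both IL-4+CGRP replicate 2 and IL-4 replicate 1, gave 140 to 1066 higher and 80 to 1187 lower among all genes, 0 to 1 higher and 0 to 1 lower mitosis calls, 0 to 2 higher and 0 to 12 lower among other mitosis genes, and 0 to 5 lower replication genes. The highest counts came without IL-4+CGRP replicate 2, at 915 higher and 950 lower, and without the pair. In these fits the log2 fold change changed sign in at least 1 for 10 mitosis genes that were not called: Ccnb2 (-0.446 to 0.0256), Cdk1 (-0.0462 to 0.109), Cdc20 (-0.15 to 0.134), Aurkb (-0.117 to 0.074), Bub1 (-0.122 to 0.153), Birc5 (-0.266 to 0.23), Nuf2 (-0.142 to 0.195), Anln (-0.228 to 0.0768), Nusap1 (-0.362 to 0.0919) and Ttk (-0.217 to 0.0737). It also did for Incenp (-0.0546 to 0.0509). For genes under 4 CPM standard errors ran from 0.15 to 0.29, and the parts of depth and of spread between libraries in them were not separated.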

Other observations

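The 31 mitosis genes other than Mki67, Top2a and Smc4, a subset formed after their values were seen and so not tested, summed to 141, 135 and 139.7 CPM in IL-4+CGRP replicates 1 to 3, against 149, 154 and 155 CPM in IL-4 replicates 1 to 3, without overlap. Mki67, Top2a and Smc4 summed to 116, 103 and 118 CPM in IL-4+CGRP replicates 1 to 3, against 109, 111 and 111 CPM in IL-4 replicates 1 to 3. IL-4+CGRP replicate 2 was the lowest of the 6 libraries in both subsets.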
